A study of Drosophila melanogaster with 9 samples.

Results

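Translation initiation factors, elongation factors and aminoacyl-tRNA synthetases were followed in total RNA from the central brains of Drosophila melanogaster. The genes are the protein-coding ones whose FlyBase symbol begins with eIF or eEF, or is an amino acid abbreviation followed by RS with or without -m, together with GluProRS. In all, 85 symbols met this rule, and 81 of them had an identifier among the 17489 genes of the files. LeuRS, PheRS-m, eEF1alpha1 and eEF5 were not analysed here. By role, the 81 genes comprised 9 factors for start codon recognition and the ternary complex, 5 eIF2B subunits, 16 eIF3 genes, 13 eIF4 genes, eIF6, 6 elongation factors, 17 cytosolic synthetases and 14 mitochondrial synthetases.

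Flies were males of the strain w1118CS, 7 days old and kept in vials of 25, and each sample pooled 10 brains. The sample titles of all 3 groups begin with CD, which the study uses for its control diet. Refed flies were deprived of food on wet tissue from 5 PM, with lights on at 9 AM, and were given 400 mM D-glucose for 2 h. Sated flies were kept on wet tissue for 1 h before dissection. Fasted flies spent 20 h on wet tissue, also from 5 PM and with lights on at 9 AM. Each group had 3 samples here, although 4 replicates of each condition are described in the records. The records do not say whether the pools came from separate cultures, so p-values measure only the spread between these samples. Glucose was the only nutrient given to refed flies after the fast, so the refed and sated groups differ in the food eaten as well as in the fast. No total fast is given for refed flies, so the refed and fasted groups may also differ in fast length and hour of dissection. In the paper sated brains were taken after the flies' morning meal, so the sated group may differ from both others in hour of dissection.

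Messenger RNA is translated in steps that use separate protein machines. eIF2 with GTP brings the initiator tRNA to the small ribosomal subunit, eIF2B recharges eIF2 with GTP, and phosphorylation of eIF2alpha blocks that exchange when amino acids run short. eIF3 is the large scaffold on the small subunit, and the eIF4 proteins recognise the cap and unwind the leader. The eEF1 and eEF2 factors then deliver charged tRNAs and move the ribosome, and synthetases load each tRNA with its amino acid in the cytosol or in mitochondria.

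Between 4957138 and 7897838 reads were counted on genes per library. The share of reads on the opposite strand of genes was 9.59% to 12.4% in 6 libraries, but it was 20.6% in the second sated library, and 24.6% and 28.5% in fasted libraries 1 and 2. Levels are given as CPM, which is read counts divided by TMM-scaled library size over the 9 libraries, and replicate pairs differed by more than their counting noise. The labelled tissue was checked on marker genes. All 5 neuronal markers were detected and summed to 7286 to 8155 CPM in refed, 7998 to 8370 CPM in sated and 7723 to 8143 CPM in fasted libraries, while 6 fat body markers summed to at most 2.79 CPM. Retinal markers summed to 805 to 940 CPM in refed, 1144 to 1282 CPM in sated and 542 to 1003 CPM in fasted libraries, although the label is central brain. Muscle markers reached 287.4 CPM in fasted replicate 2, against at most 75.5 CPM in the other libraries. The 4 blood cell markers summed to 322 to 374 CPM in refed, 349 to 428 CPM in sated and 306 to 358 CPM in fasted libraries.

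Of the 81 genes, 73 averaged at least 1 CPM, and the same 73 passed the low-count filter in each comparison. The 8 others were eIF3d2, eIF3f2, eIF3g2, eIF4E3, eIF4E4, eIF4E5, eIF4E7 and eIF4H2, all paralogs of a more abundant gene. Of these, eIF3d2, eIF4E4 and eIF4E7 had 5, 8 and 2 counts over the 9 libraries. To compare genes, levels were divided by exon length. eEF1alpha2, which delivers charged tRNA to the ribosome, was the most abundant at 390 CPM per kb, followed by the helicase eIF4A at 351 CPM per kb and the translocase eEF2 at 340 CPM per kb. eEF1gamma followed at 104 CPM per kb. The other elongation genes ranged down to 1.66 CPM per kb for eEFSec, whose homologs deliver selenocysteine tRNA.

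**Figure D1:**
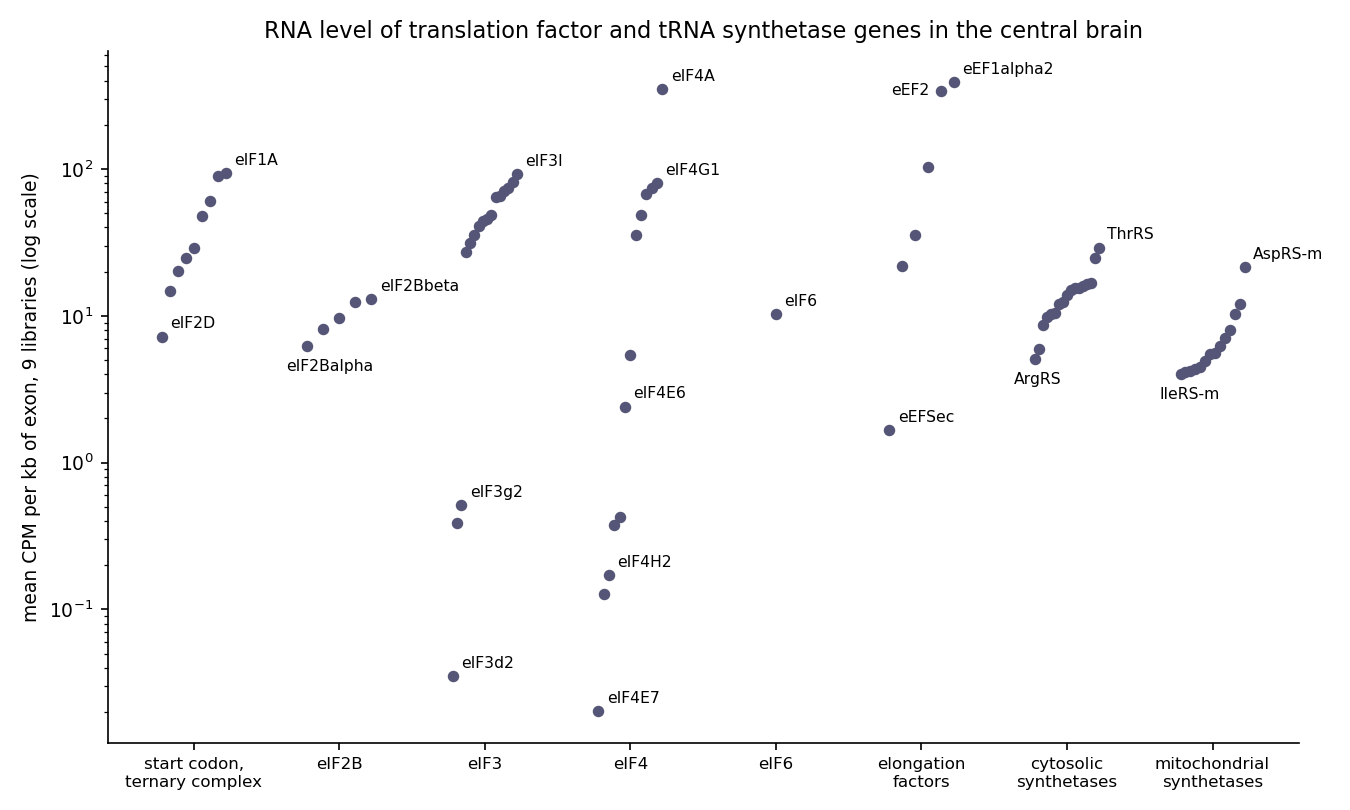
Mean level of each of the 81 genes over the 9 libraries, in CPM per kb of exon on a log axis, by role (1 point per gene). eEF1alpha2, eIF4A and eEF2 lie between 340 and 390 CPM per kb, and 8 paralogs of eIF3 and eIF4 genes lie lowest.

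Levels within a role were graded. In the eIF3 group the range among tested genes began at eIF3k with 27.4 CPM per kb and ended at eIF3l with 92.4 CPM per kb. eIF1A, a scanning factor, was highest among the start codon factors at 93.5 CPM per kb, and eIF2D, which binds initiator tRNA without eIF2, was lowest at 7.20 CPM per kb. The 5 eIF2B subunits lay between 6.23 CPM per kb for eIF2Balpha and 13.0 CPM per kb for eIF2Bbeta. Cytosolic synthetases had a median of 13.8 CPM per kb, with ArgRS lowest at 5.12 and ThrRS highest at 29.2 CPM per kb. The median of mitochondrial synthetases was 5.52 CPM per kb, with IleRS-m lowest at 4.01 and AspRS-m highest at 21.5 CPM per kb.

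These levels varied little between libraries. Over the 58 genes with a mean of at least 100 counts, the coefficient of variation across all 9 libraries ran from 2.46% to 14.0%, with a median of 7.53%. eIF5B, which joins the ribosomal subunits, varied least, at 2.46%, and the cap-complex scaffold eIF4G2 and GluProRS were next with 2.84% and 3.15%.

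The 3 groups were then compared in pairs, to ask whether the RNA for translation factors follows feeding state. At a Benjamini-Hochberg adjusted p of 0.05 in the edgeR quasi-likelihood fit over all genes tested, 0 of the 73 genes passed in any comparison. Among all genes, 10 of 9025 passed in refed against fasted brains (0.111%), 24 of 8957 in sated against fasted brains (0.268%) and 16 of 8931 in refed against sated brains (0.179%). At an unadjusted p under 0.05, 3 of the 73 genes passed in refed against fasted brains, where 6.77% of all genes did. The same count was 16 of 73 in sated against fasted brains (9.72% of all genes) and 12 of 73 in refed against sated brains (11.5% of all genes). In each comparison the median standard error was 0.09 in the 73 genes and 0.12 over all genes. At an equal change, genes of the set could therefore reach a small p more readily.

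The 16 genes in sated against fasted brains were mostly on the lower side, with 13 lower in sated brains, where 4.68% of all genes were, and 3 higher (5.05% of all genes). In refed against sated brains 11 of the 12 were higher in refed brains (6.08% of all genes) and 1 was lower (5.42%). In refed against fasted brains 1 was higher in refed brains (2.66%) and 2 were lower (4.11%). Genes whose groups did not overlap were also counted. In sated against fasted brains 14 lay lower in sated libraries (6.71% of all genes) and 5 higher (7.69%), and in refed against sated brains 13 lay higher in refed libraries (10.1%) and 7 lower (8.08%). In refed against fasted brains 7 lay higher in refed libraries (7.69%) and 1 lower (4.37%), so that the balance of directions was not that of the genes with an unadjusted p under 0.05.

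Other fits called some of the 73 genes, in sated against fasted brains alone and with lower values in sated brains in each case. DESeq2 called 4 of the 73 (eIF4A, eEF2, eIF3l and eIF3a), where it called 1.47% of the genes it adjusted. In edgeR, counting both strands called 3 (0.583% of all genes), robust empirical Bayes 3 (0.726%), the opposite-strand share as a covariate 2 (0.726%) and a replicate block 1 (0.804%). Leaving out the 3 libraries with over 20% of opposite-strand reads, which was chosen after seeing the data, called 3 (2.17%).

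Differences were small where they could be measured. The 95% interval of the log2 fold change lay within 0.5 on either side of 0 for 66 of 73 genes in refed against fasted, 63 in sated against fasted and 59 in refed against sated brains. The median log2 fold change was -0.01 in refed against fasted, -0.04 in sated against fasted and 0.05 in refed against sated brains, next to medians of -0.01 to -0.00 over all genes tested. Each pair of comparisons shares a group, so a low sated library enters both comparisons that use it. In bulk brain tissue, fewer cells of a type and less RNA per cell cannot be told apart.

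What stood out was the sated group, which may also differ from the others in hour of dissection. For 10 of the 73 genes, or 13.7%, all 3 sated libraries lay below all 6 libraries of the other groups, a pattern seen in 3.09% of all genes tested. These were eEF2, eEF1alpha2, eIF3a, eIF3b, eIF3i, eIF3l, eIF3m, eIF4A, eIF2D and eIF6. The 73 genes had smaller standard errors than all genes, as given above, and the part of this in the shares was not tested. All 3 sated libraries lay above the rest for eIF4EHP and eIF4G2, and 2.91% of all genes showed that pattern. Both margins were narrow. For eIF4G2 the lowest sated library had 447.9 CPM and the highest refed library 447.2 CPM. For eIF4EHP these were 454.0 and 453.3 CPM, and its counts depend on how reads shared with the overlapping gene Syx1A were assigned. CG33111 overlaps eIF4G2 on the same strand, so the counts of eIF4G2 may depend on shared reads as well. The sated libraries also had the highest retinal marker sums, and the part of this in the result was not tested. In sated replicate 2 the sum depended on the retinal marker ninaE, at 292 CPM. It had 5.08 and 18.6 CPM in sated replicates 1 and 3, and 2.76 to 108 CPM in refed and fasted libraries. The refed libraries were all above the rest for 1 gene, eIF6 (2.78% of all genes), and all below for 0 genes (1.43%). The fasted libraries were all below the rest for 1 gene, TrpRS (1.76%), and all above for 0 genes (1.12%).

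Of the 10 genes, 5 encode subunits of eIF3. Of its 13 tested genes, 11 had a log2 fold change below 0 in sated against fasted brains, where 50.2% of all genes did, and the median was -0.14. At an unadjusted p under 0.05, 7 of the 13 were lower in sated brains, against 4.68% of all genes. The median standard error there was 0.06 in the 13 genes and 0.12 over all genes, so smaller changes could pass in eIF3. The 16 eIF3 genes summed to 1257, 1212 and 1298 CPM in sated libraries, against 1383, 1378 and 1410 CPM in fasted libraries. The sums of the refed libraries were 1350, 1342 and 1475 CPM. All 3 sated sums lay below every other library.

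eIF3l (FBgn0036258, chromosome arm 3L, 12143446 to 12146097, minus strand, BDGP6), known from mammals as a subunit of the eIF3 core, had 147, 148 and 162 CPM in sated libraries, against 177, 174 and 185 CPM in fasted libraries. The groups did not overlap, and the log2 fold change was -0.23 with a standard error of 0.05 (edgeR adjusted p = 0.0990). In refed libraries eIF3l had 178, 167 and 187 CPM, which also lay above every sated library, at a log2 fold change of 0.21 in refed against sated brains (SE 0.06, edgeR adjusted p = 0.185). Its refed and fasted libraries overlapped.

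eIF3a (FBgn0037249, chromosome arm 3R, 4429798 to 4433895, minus strand), the largest scaffold subunit, had 162, 155 and 169 CPM in sated libraries, against 185, 183 and 192 CPM in fasted libraries. The log2 fold change was -0.21 with a standard error of 0.04 (edgeR adjusted p = 0.0990). Refed libraries had 169, 186 and 194 CPM, so the lowest refed library was close to the highest sated one. Against sated brains the log2 fold change in refed brains was 0.17 (SE 0.06, edgeR adjusted p = 0.303).

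eIF3i, a small beta-propeller subunit, had 63.9, 68.6 and 70.9 CPM in sated libraries, against 75.1, 81.3 and 81.0 CPM in fasted libraries (log2 fold change -0.23, SE 0.06, edgeR adjusted p = 0.257). In refed libraries it had 76.7, 79.6 and 86.1 CPM, at a log2 fold change of 0.25 against sated brains (SE 0.07, edgeR adjusted p = 0.189). eIF3b, which anchors eIF3i and eIF3g in the complex, gave -0.14 in sated against fasted (SE 0.04) and 0.15 in refed against sated brains (SE 0.05), and eIF3m gave -0.14 (SE 0.05) and 0.20 (SE 0.07). Without refed replicate 3 the second value of eIF3m was 0.12. The 2 genes on the other side of 0 in sated against fasted brains were eIF3j, the loosely bound subunit, and eIF3k, at 0.04 and 0.11. In refed against fasted brains 7 of the 13 eIF3 genes lay above 0 and 6 below (52.9% of all genes), with a median of 0.00. The split changed with single libraries, to 11 below 0 without refed replicate 3 and 3 below without refed replicate 1, and unstranded counts put 10 below. There eIF3h had the smallest p, with 88.1, 90.1 and 103 CPM in refed libraries, against 99.3, 105 and 110 CPM in fasted libraries. These overlapped at the top of the refed range (log2 fold change -0.18, SE 0.07, edgeR adjusted p = 0.705).

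**Figure D2:**
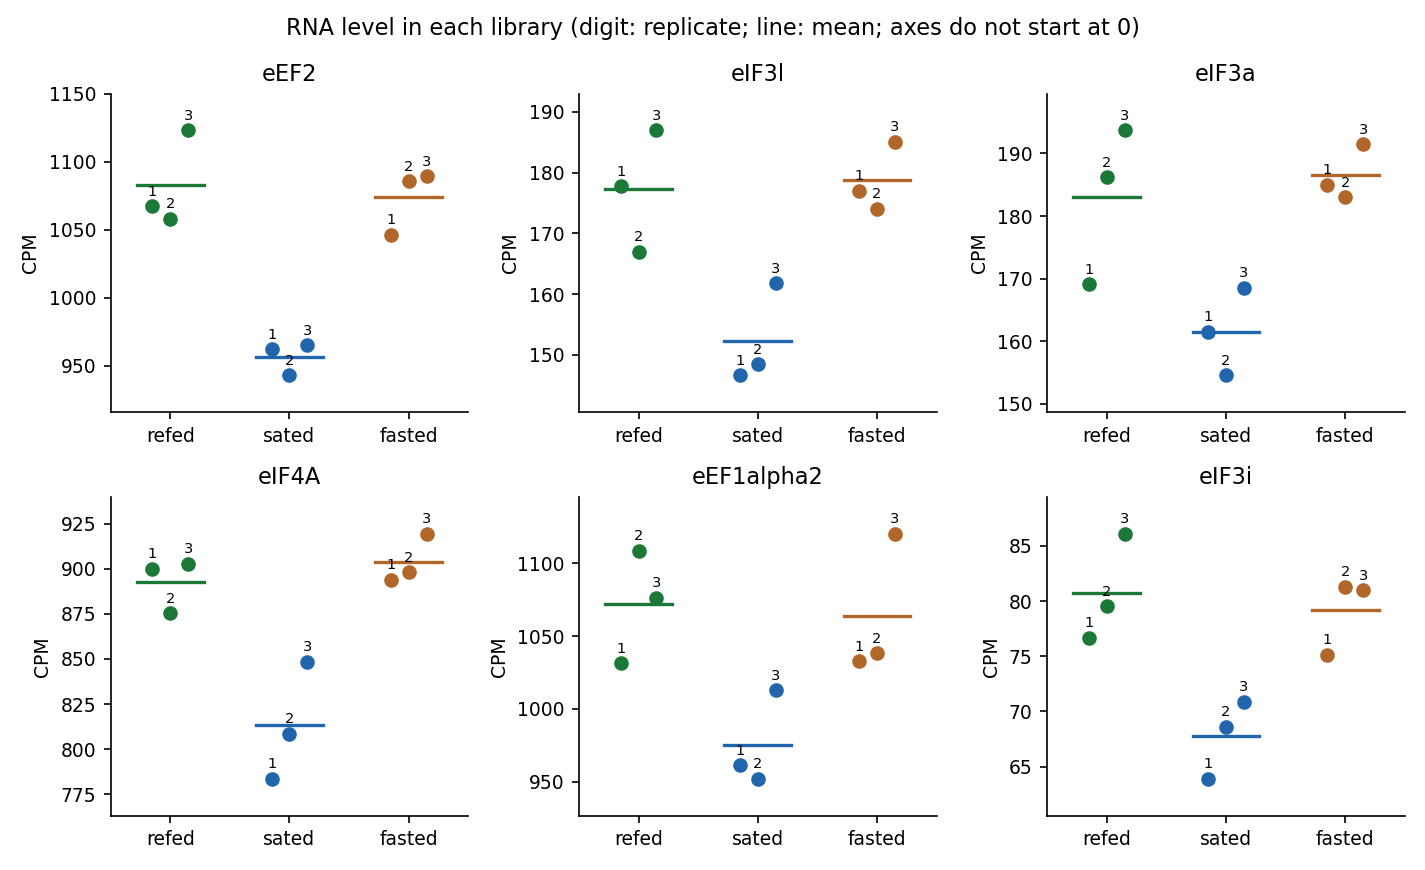
CPM of 6 genes in each of the 9 libraries (points, numbered by replicate; lines are group means; each axis starts above 0). In all 6 genes the 3 sated libraries lie below the refed and the fasted libraries, as for eEF2 at 943 to 965 CPM in sated libraries.

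Elongation factors followed the same order of groups. All 6 tested genes had a log2 fold change below 0 in sated against fasted brains, with a median of -0.15, and all 6 were above 0 in refed against sated brains, where 50.9% of all genes were below 0, with a median of 0.11. That count in refed against sated brains depended on single libraries. Without refed replicate 3, 2 of the 6 lay below 0, and without sated replicate 1, 1 did and the median was 0.060. Summed over the 6 genes, sated libraries had 2141, 2110 and 2214 CPM, against 2328, 2370 and 2447 CPM in fasted libraries. Refed libraries had 2324, 2385 and 2449 CPM and spanned nearly the fasted range. Against fasted brains, 5 of 6 elongation genes lay below 0, at a median of -0.05, but 3 of 6 did with DESeq2, without a filter and with all 9 samples in one fit. Without fasted replicate 3 it was also 3 of 6, and the median was -0.0096.

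eEF2 (FBgn0000559, chromosome arm 2L, 21677913 to 21682164, minus strand), which moves the ribosome along the message, had the smallest p of the 73 genes in both comparisons that involve sated brains. Its libraries had 962, 943 and 965 CPM in sated brains, against 1046, 1086 and 1089 CPM in fasted brains. The gap between the groups was wider than the spread within either, and the log2 fold change was -0.17 (SE 0.03, edgeR adjusted p = 0.0702). Refed libraries had 1067, 1058 and 1123 CPM, at a log2 fold change of 0.17 against sated brains (SE 0.05, edgeR adjusted p = 0.183).

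eEF1alpha2 (FBgn0000557, chromosome arm 3R, 31738468 to 31743306, plus strand) had 961, 952 and 1013 CPM in sated libraries, against 1033, 1038 and 1120 CPM in fasted libraries. The groups were separated by a narrow gap (log2 fold change -0.13, SE 0.04, edgeR adjusted p = 0.285). Refed libraries had 1031, 1108 and 1076 CPM (log2 fold change 0.13 against sated brains, SE 0.05, edgeR adjusted p = 0.362). eEF1alpha2 has a close paralog in eEF1alpha1, whose counts were not analysed here, so reads shared by the pair could be split or lost. The exchange factor subunits eEF1beta and eEF1gamma also had all sated libraries below the fasted ones, at log2 fold changes of -0.19 (SE 0.09) and -0.12 (SE 0.05).

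The eIF4 group was divided. eIF4A (FBgn0001942, chromosome arm 2L, 5981764 to 5985909, plus strand), the helicase of the cap complex, was among the lower genes, with 784, 809 and 849 CPM in sated libraries, against 894, 898 and 919 CPM in fasted libraries. The log2 fold change was -0.15 with a standard error of 0.03 (edgeR adjusted p = 0.124). Refed libraries had 900, 875 and 903 CPM, again above every sated library (log2 fold change 0.13 against sated brains, SE 0.05, edgeR adjusted p = 0.341). The other eIF4 genes did not follow eIF4A. Of the 8 tested, 6 had a log2 fold change above 0 in sated against fasted brains, at a median of 0.06 over the group, and eIF4B, a helicase cofactor, was the other one below 0. Leaving out 1 library at a time put 1 to 3 of the 8 below 0, and the median was 0.027 without the 3 libraries high in opposite-strand reads.

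The cap-complex scaffolds had slightly higher values in sated libraries, and neither passed the adjusted threshold in edgeR. eIF4G1 had 553, 548 and 548 CPM in sated libraries, against 522, 503 and 535 CPM in fasted libraries (log2 fold change 0.08, SE 0.03). eIF4G2 had 456, 448 and 450 CPM in sated libraries, against 435, 414 and 438 CPM in fasted libraries, at a log2 fold change of 0.07 (SE 0.03). The cap-binding protein eIF4E1 lay at 0.04 (SE 0.06) in sated against fasted brains and 0.02 (SE 0.06) in refed against fasted brains. Between refed and fasted brains eIF4B had the largest size of log2 fold change among the 8 genes with the smallest p, with 10.8, 8.68 and 8.09 CPM in refed libraries, against 12.6, 9.81 and 11.0 CPM in fasted libraries. These overlapped (log2 fold change -0.29, SE 0.17, edgeR adjusted p = 0.742), and the log2 fold change was -0.19 without fasted replicate 1.

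**Figure D3:**
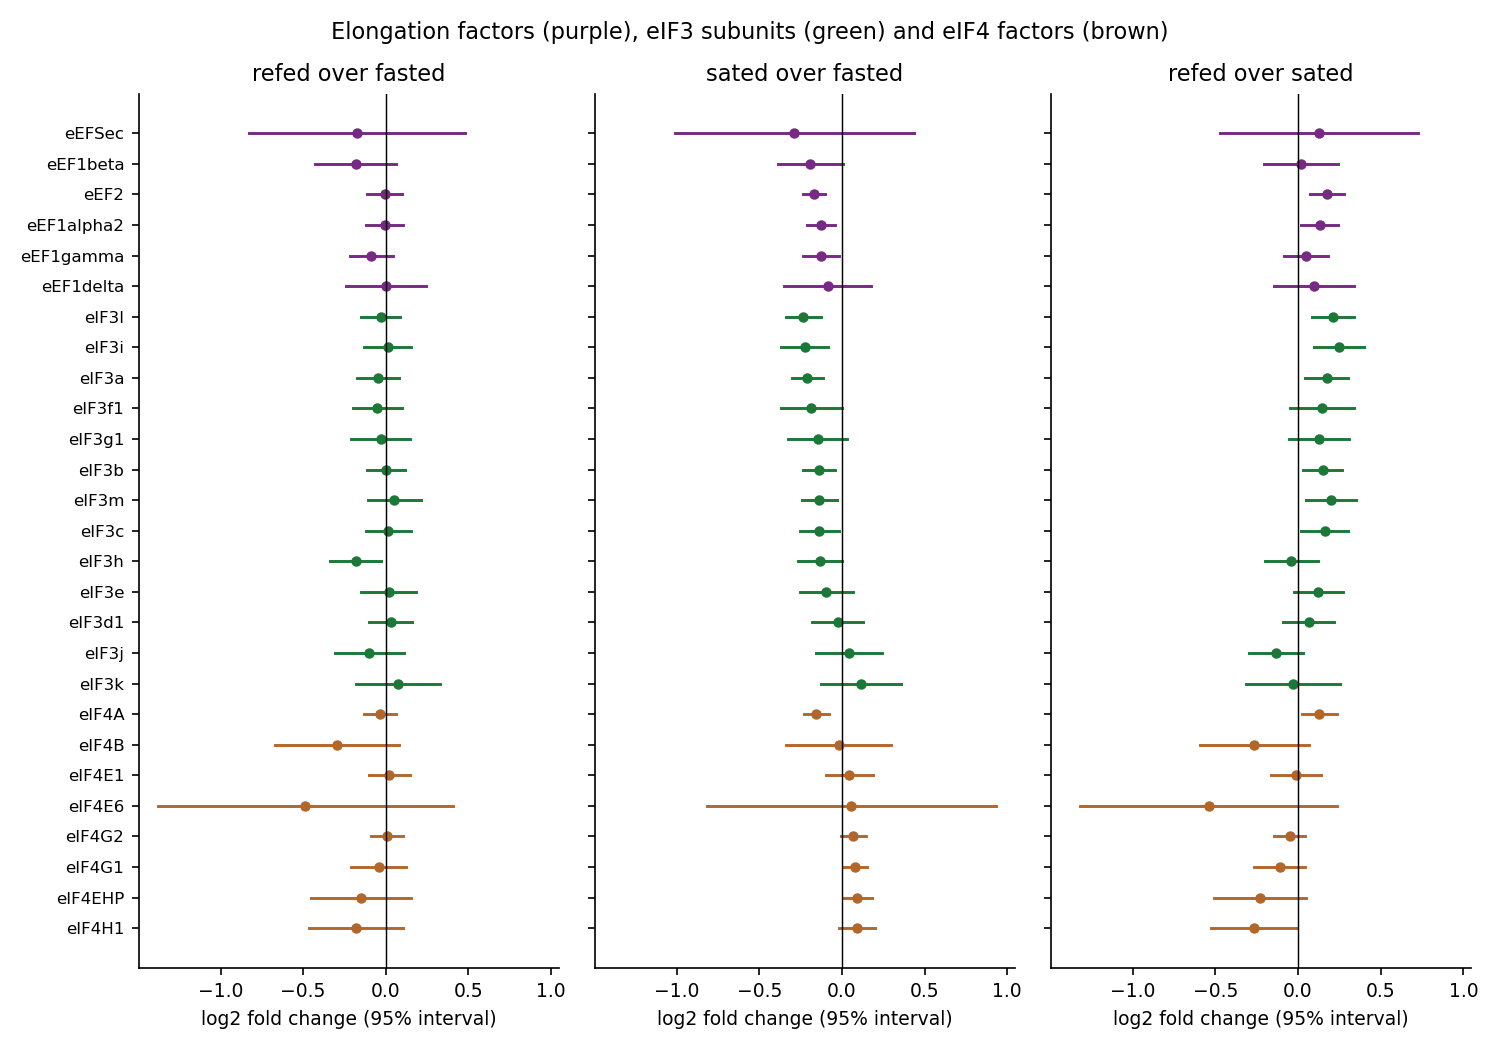
Log2 fold changes with 95% intervals for 6 elongation factors, 13 eIF3 genes and 8 eIF4 genes, in refed over fasted, sated over fasted and refed over sated brains. In sated over fasted brains all 6 elongation factors and 11 of 13 eIF3 genes lie below 0, while 6 of 8 eIF4 genes lie above it.

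Some eIF4 values in refed brains came from 1 library. eIF4EHP, a cap-binding protein that represses translation, had 444, 453 and 298 CPM in refed libraries, against 458, 488 and 454 CPM in sated libraries and 443, 431 and 437 CPM in fasted libraries. Only refed replicate 3 was low. eIF4H1, a helicase cofactor, had 157, 159 and 109 CPM in refed libraries, against 171, 176 and 163 CPM in sated libraries, and again refed replicate 3 was the low one. eIF4G1 had 554, 529 and 449 CPM in refed libraries. The neuronal marker Syt1 was also lowest in that library, with 2471, 2406 and 2032 CPM in refed replicates 1, 2 and 3, and the part of this in the eIF4 values was not tested. Without refed replicate 3, the median of the eIF4 group in refed against sated brains was -0.06, against -0.17 with it. eIF4EHP shares its strand and part of its span with Syx1A, a synaptic gene, so counts of the pair depend on how shared reads were assigned.

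Start codon factors had no common direction. In sated against fasted brains 6 of 9 lay below 0, with a median of -0.02. eIF1, which keeps scanning ribosomes from starting at wrong codons, had 46.6, 46.3 and 44.7 CPM in sated libraries, against 36.6, 40.7 and 40.3 CPM in fasted libraries (log2 fold change 0.22, SE 0.07, edgeR adjusted p = 0.342). eIF2D had 10.9, 9.95 and 11.9 CPM in sated libraries, against 13.8, 17.6 and 13.3 CPM in fasted libraries (log2 fold change -0.44, SE 0.15, edgeR adjusted p = 0.374). The gene Pglym78 lies on the opposite strand of eIF2D, and 1.29 opposite-strand reads were counted there per eIF2D read. Of the start codon factors in refed against fasted brains, eIF1A had the smallest p, with 162, 156 and 152 CPM in refed libraries, against 171, 161 and 171 CPM in fasted libraries (log2 fold change -0.11, SE 0.05, edgeR adjusted p = 0.705). The eIF2 subunits eIF2alpha, eIF2beta and eIF2gamma were not among the 8 genes with the smallest p in any comparison.

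The 5 eIF2B subunits summed to 84.0, 85.9 and 82.1 CPM in sated libraries, against 89.7, 84.1 and 83.5 CPM in fasted libraries, which overlapped. Refed libraries had 92.5, 91.1 and 91.3 CPM and lay above every sated and fasted library, although no subunit passed the test in either comparison. The largest contribution came from eIF2Bdelta, a subunit of the regulatory part of eIF2B, with 29.3, 30.5 and 28.2 CPM in refed libraries, against 22.8, 26.2 and 25.8 CPM in sated libraries (log2 fold change 0.23, SE 0.09, edgeR adjusted p = 0.367). eIF6, which keeps the large ribosomal subunit apart from the small one, had 11.9, 11.7 and 11.5 CPM in refed, 10.4, 9.26 and 9.58 CPM in sated and 11.3, 11.0 and 10.7 CPM in fasted libraries. At 53 or more counts per library this spread gave log2 fold changes of 0.07 (SE 0.12) in refed against fasted and -0.17 (SE 0.14) in sated against fasted brains.

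Cytosolic synthetases were next examined in refed against fasted brains. At an unadjusted p under 0.05, 1 of the 17 passed and was higher in refed brains, where 2.66% of all genes were. Of the 8 genes with the smallest p there, 5 were cytosolic synthetases, and all 5 had higher means in refed libraries. For 5 of 17, namely AsnRS, TrpRS, AlaRS, ThrRS and MetRS, every refed library lay above every fasted library, a pattern seen in 7.69% of all genes. AspRS showed the opposite, which 4.37% of all genes did. The role as a whole did not lean one way, with 9 genes above 0, 8 below and a median of 0.02. Summed over the 17 genes, refed libraries had 697, 683 and 677 CPM, against 658, 662 and 662 CPM in fasted libraries, with no overlap. Sated libraries had 658, 630 and 695 CPM and overlapped both.

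AsnRS (FBgn0086443), which charges asparagine tRNA, had the smallest p in refed against fasted brains. It had 41.4, 42.2 and 46.6 CPM in refed libraries, against 37.1, 35.4 and 37.2 CPM in fasted libraries (log2 fold change 0.23, SE 0.07, edgeR adjusted p = 0.705). TrpRS had 28.8, 27.0 and 26.9 CPM in refed libraries, against 24.6, 24.6 and 23.5 CPM in fasted libraries (log2 fold change 0.17, SE 0.08, edgeR adjusted p = 0.705). Sated libraries had 26.9, 26.5 and 26.2 CPM of TrpRS, also above every fasted library. AlaRS, ThrRS and GlyRS gave log2 fold changes of 0.16 (SE 0.09), 0.11 (SE 0.06) and 0.21 (SE 0.11), and for GlyRS the groups overlapped. The log2 fold change of AlaRS was 0.093 without refed replicate 1. That of GlyRS was 0.12 without fasted replicate 3. It was 0.40 without the libraries that had over 20% of opposite-strand reads, a fit that leaves fasted replicate 3 alone on the fasted side.

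In sated against fasted brains, TyrRS (FBgn0027080, chromosome arm 3L, 16417349 to 16419302, minus strand) was the only synthetase among the 8 genes with the smallest p. It had 22.4, 24.3 and 29.1 CPM in sated libraries, against 29.9, 31.2 and 35.4 CPM in fasted libraries, and the groups were separated by less than 1 CPM (log2 fold change -0.35, SE 0.11, edgeR adjusted p = 0.323). Refed libraries had 31.1, 30.0 and 28.4 CPM. The other 16 cytosolic synthetases had edgeR p-values above 0.05 before adjustment in sated against fasted brains, where 9.72% of all genes were under 0.05. The median log2 fold change over the 17 was 0.01.

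Mitochondrial synthetases, which serve translation of the mitochondrial genome, showed 0 of 14 genes at an unadjusted p under 0.05 in each of the 3 comparisons. Over all genes 6.77% passed in refed against fasted, 9.72% in sated against fasted and 11.5% in refed against sated brains. For 14 genes, a count of 0 is not far from these shares. Medians over the 14 genes were 0.04 in refed against fasted, -0.01 in sated against fasted and 0.04 in refed against sated brains. The lowest level was in TyrRS-m, at a mean of 6.45 CPM. Over the 14 genes the standard errors had a median of 0.13 in refed against fasted and 0.14 in each comparison with sated brains. For eIF3 genes the median standard error was 0.06 in sated against fasted brains, and AspRS-m, with means of 99.3 CPM in sated and 90.7 CPM in fasted libraries, had 0.06 there as well.

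GluRS-m (FBgn0036629, chromosome arm 3L, 16415292 to 16417177, minus strand), the mitochondrial glutamate enzyme, followed the libraries and not the groups. It had 6.49, 6.18 and 4.66 CPM in refed, 4.18, 11.7 and 3.83 CPM in sated and 12.2, 9.61 and 4.48 CPM in fasted libraries. The 3 high values belonged to sated replicate 2, fasted replicate 1 and fasted replicate 2, the libraries with over 20% of reads on the opposite strand. Serinc lies on the opposite strand of GluRS-m, and 4.48 opposite-strand reads were counted per GluRS-m read. Of the 72 genes with at least 10 counts in every library, 6 had more than 0.5 opposite-strand reads per own read, namely ArgRS-m, AsnRS-m, GluRS-m, SerRS-m, eIF2Balpha and eIF2D, and the median was 0.115. eEF2, eIF3l, eIF3a and eIF4A have no annotated gene on the opposite strand, with ratios of 0.0969, 0.123, 0.0882 and 0.135.

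**Figure D4:**
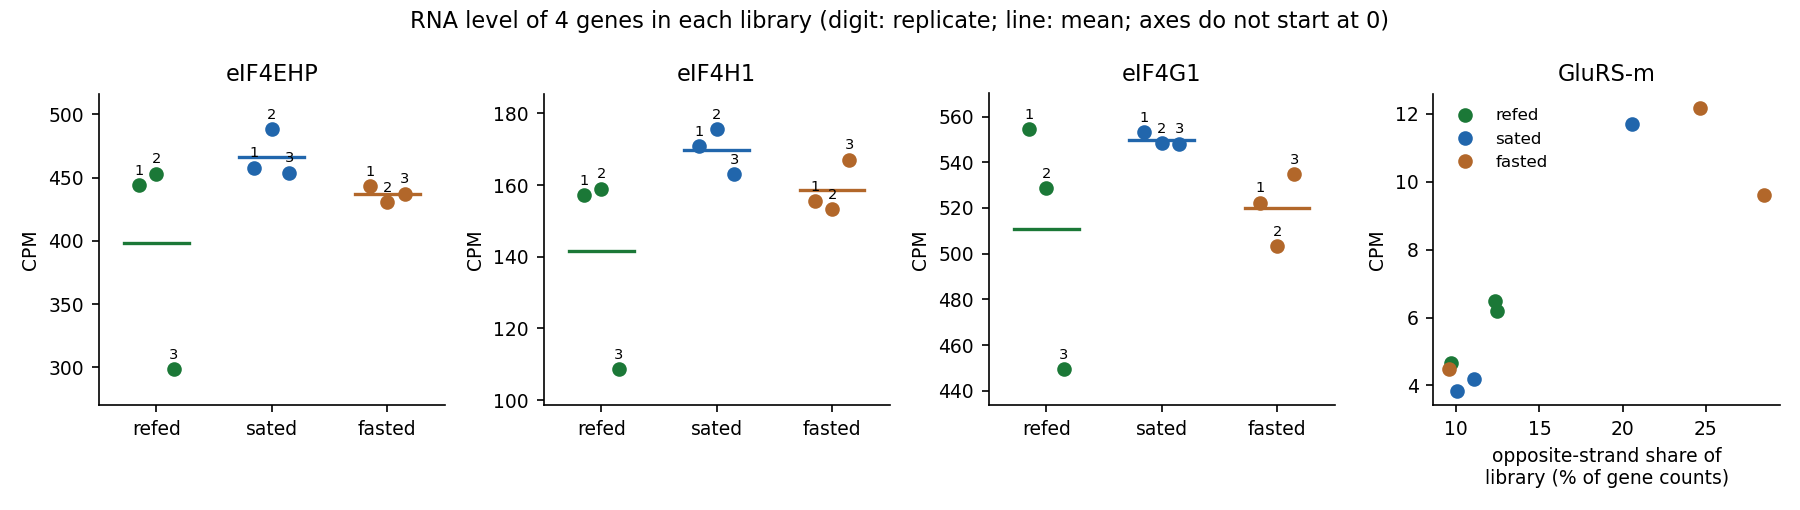
CPM of eIF4EHP, eIF4H1 and eIF4G1 in each library (points numbered by replicate, lines are group means, axes start above 0), and CPM of GluRS-m against the percent of each library's gene reads on the opposite strand. Refed replicate 3 is low in the first 3 panels, and the 3 libraries above 20% have 9.61 to 12.2 CPM of GluRS-m.

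Mitochondrial and cytosolic enzymes for the same amino acid were set side by side in 13 pairs, in which the bifunctional GluProRS serves as partner of both GluRS-m and ProRS-m. The mitochondrial gene had the lower CPM per kb in all 9 libraries in 9 pairs. In IleRS-m it averaged 4.01 ± 0.37 CPM per kb, against 16.0 ± 1.03 CPM per kb in IleRS (SD, n = 9). Aspartate was the exception in every library, with 21.5 ± 1.17 CPM per kb in AspRS-m, against 10.2 ± 0.76 CPM per kb in AspRS (SD, n = 9). ArgRS-m exceeded ArgRS in 8 of 9 libraries, and CysRS-m and SerRS-m exceeded their partners in 3 of 9 each.

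**Figure D5:**
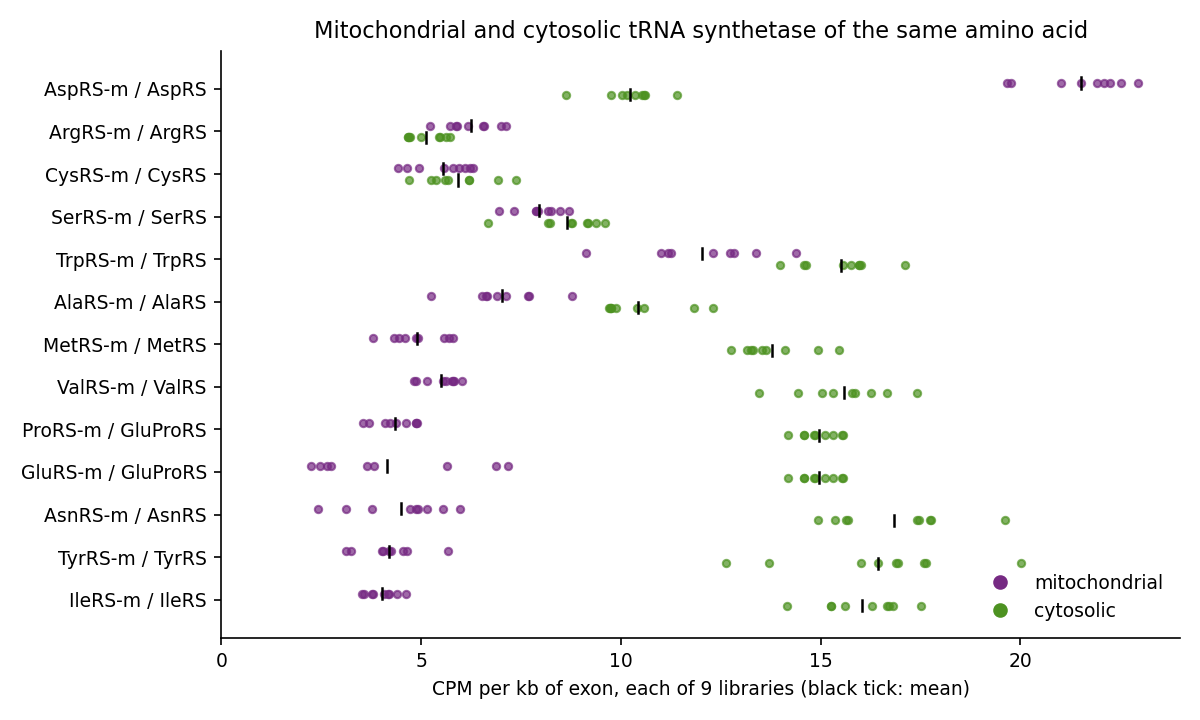
CPM per kb of exon of the mitochondrial (purple) and cytosolic (green) synthetase of the same amino acid in each of 9 libraries, with means as black ticks. AspRS-m lies above AspRS in all 9 libraries, and 9 of the 13 pairs show the reverse in all 9.

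Levels of other paralogs were also compared. In the eIF4E family eIF4E1 had 74.2 CPM per kb, while eIF4E6 had 2.40 and eIF4E3, eIF4E4, eIF4E5 and eIF4E7 had 0.43 CPM per kb or less. eIF4EHP was counted at 67.6 CPM per kb, a value that depends on how reads shared with Syx1A were assigned. eIF3d1, eIF3f1 and eIF3g1 had 35.6, 74.4 and 44.5 CPM per kb, whereas eIF3d2, eIF3f2 and eIF3g2 had 0.035, 0.39 and 0.51. eIF4H1 had 35.4 CPM per kb, against 0.17 CPM per kb in eIF4H2. The eIF4G pair was more even, at 80.3 CPM per kb in eIF4G1 and 48.3 CPM per kb in eIF4G2. The value of eIF4G2 may depend on how reads shared with CG33111 were assigned.

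Regulators and partners of these factors were examined as lists. None of 5 release and rescue factors, 3 genes of the eIF2 kinase arm, 7 genes for cap-complex and TORC1 control, 8 mitochondrial translation factors and 5 synthetase partners that were tested passed an adjusted p of 0.05 in edgeR in any comparison. Their median log2 fold changes in sated against fasted brains were 0.08, 0.05, -0.01, 0.07 and -0.02. Tor, S6k and cup of the TORC1 list, Gcn1 of the kinase arm and the synthetase partner SLIMP were not tested. Thor, the 4E-BP that binds eIF4E1, had the largest size of difference, at -0.62 in refed against fasted brains (SE 0.25, edgeR adjusted p = 0.705) and -0.92 in sated against fasted brains (SE 0.26, edgeR adjusted p = 0.244). Lk6, a kinase of eIF4E1, was at -0.16 (SE 0.03, edgeR adjusted p = 0.117) and pix, the ribosome recycling factor, at -0.17 (SE 0.04, edgeR adjusted p = 0.198) in sated against fasted brains. The eIF2 kinase Gcn2 was at -0.17 there (SE 0.07, edgeR adjusted p = 0.444). mEFTu1, a mitochondrial elongation factor, was at 0.22 in refed against fasted (SE 0.07, edgeR adjusted p = 0.688) and 0.26 in refed against sated brains (SE 0.08, edgeR adjusted p = 0.218).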

How the data were processed

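Reads were aligned by the authors with STAR to BDGP6, and the deposited files hold whole-number read counts per gene, unnormalized, for both strands together and for either strand alone. The STAR version is not given in the sources used here, and the submitters' notes also name SAMtools 1.4, DESeq2 1.18.0 and HTSeq. The count on the gene's own strand was used. Rows without a gene, 42.5% to 60.3% of reads, were left out. Genes and lists were chosen with earlier results of these data known.

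The 6 samples of a comparison were fitted without the third group in edgeR 4.0.16 (R 4.3.3), with filterByExpr, TMM, the quasi-likelihood test and Benjamini-Hochberg adjustment over all genes tested, at 0.05. For the standard error, the size of the log2 fold change was divided by the root of the F statistic. Exon lengths and coordinates are from Ensembl 115 (BDGP6). The fits were tested on simulated data with changes larger than those of most genes of the set, so this does not show how well smaller ones are found. Alternatives were DESeq2 1.42.0, RLE, no filter, at least 10 counts in every sample, 1 fit of all 9 samples, a replicate block, unstranded counts, robust empirical Bayes, the opposite-strand share as covariate, and each replicate left out. Named genes were the 8 with the smallest p in each comparison, the highest per kb and lowest in each role, and those with under 10 counts in all. Others, such as eIF1, eIF2D, eIF2Bdelta, eIF4EHP, GluRS-m and the names behind small counts, were chosen after their values were seen. Without molecular identifiers, reads cannot be counted as molecules.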

Additional observations from a re-analysis of the deposited data

How the results depend on the processing

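No gene of the set named for its p changed direction in any alternative. Genes of the set passed an adjusted p of 0.05 only in sated against fasted brains, all with lower values in sated brains: 4 with DESeq2, 3 with unstranded counts, 3 with robust empirical Bayes, 2 with the opposite-strand share as covariate and, in an alternative chosen after seeing the data that left out sated replicate 2 and fasted replicates 1 and 2, 3 (eEF2, eEF1alpha2 and eIF4A). That last fit leaves 1 fasted library, which is assumed to vary like the sated ones. With each replicate left out in turn, the count stayed at 0 in each comparison. Adjusted p-values of eEF2 in sated against fasted brains ran from 0.000161 (DESeq2) to 0.310. The median log2 fold change of the set there ran from -0.084 (without fasted replicate 3) to -0.027 (without sated replicate 2) with a replicate left out.

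Over all genes, counts of calls depended on the fit. In refed against fasted brains they were 28 with DESeq2, 31 without a filter, 20 with unstranded counts, 6 with the covariate, and 2 to 264 with a replicate left out (264 without fasted replicate 3). In sated against fasted brains they were 111 with DESeq2, 75 without a filter, 55 with unstranded counts, 65 with robust empirical Bayes, 65 with the covariate, 204 in the alternative chosen after seeing the data, and 5 to 30 with a replicate left out. In refed against sated brains they were 53 with DESeq2, 121 without a filter, 7 with at least 10 counts in every sample, 53 with all 9 samples in one fit, 41 with unstranded counts, 34 with robust empirical Bayes, and 2 to 75 with a replicate left out (75 without refed replicate 3). The cause of these shifts was not tested.

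Replicate numbers were not treated as pairs. Correlations of same-numbered deviations were 0.07, -0.02 and 0.20 in refed against fasted, -0.05, 0.37 and 0.38 in sated against fasted, and -0.07, -0.05 and -0.03 in refed against sated brains. Between samples of unlike number they ran from -0.49 to 0.28 in sated against fasted brains. With a replicate block, 6 genes were called in refed against fasted and 72 in sated against fasted brains, 1 of them in the set (eIF3l, edgeR adjusted p = 0.0440), and no other gene of the set was called.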
